A study of Homo sapiens with 2 samples.

Results

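Polyamines are small, positively charged molecules that bind nucleic acids and that dividing cells need. Ornithine decarboxylase (ODC1) makes putrescine, adenosylmethionine decarboxylase (AMD1) makes the aminopropyl donor, and spermidine synthase (SRM) and spermine synthase (SMS) add aminopropyl groups to give spermidine and spermine. Spermidine/spermine acetyltransferase (SAT1) starts their breakdown and export. Antizymes (OAZ1, OAZ2) bind ODC1 and send it to the proteasome, and the antizyme inhibitor (AZIN1), a relative of ODC1 without its activity, binds the antizymes in its place. These 8 genes, chosen by symbol, are described here out of 60664 genes counted in 2 RNA-seq libraries.

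The libraries were made from wild-type, untreated HEK293T cells, an established human line from embryonic kidney that carries adenovirus sequence and the large T antigen of SV40, in a series on mapping R-loops. The labels give 1 group with 2 replicates and no contrast, so levels are described within the libraries and between them. For replicate 2 the cell line is spelled with another digit than in the title, which was followed. Replicate 1 held 18011638 counts and replicate 2 held 18575058. The ± values give the SD between libraries (n = 2), and since nothing says that these were separate cultures, that spread may be technical. They differed beyond counting noise (chi-square per degree of freedom 12.7 over 21018 genes), so both were kept. Of the markers checked, 4 of 4 proliferation genes and 4 of 4 nephron progenitor genes reached 1 CPM (the count scaled by its library total) in both libraries, 2 of 4 fibroblast genes did, and 0 of 4 did for each of blood, endothelium and kidney tubule. The summed blood level was 0 TPM in replicate 1 and 3.11 in replicate 2, where HBB had 38 counts, while CD3D and CD3E were at 0 in both. TPM also divides the count by the length of the exons, so levels of genes are compared on that scale, with CPM given beside it without length correction.

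Several of these genes carry sequences through which polyamines control translation. Antizyme mRNAs hold a stop codon inside the reading frame, and polyamines favour a shift of the ribosome by 1 base past it. The annotation (GENCODE 29, build GRCh38) models this shift as a skipped base, at chromosome 19 position 2271443 in OAZ1 and chromosome 15 position 64691515 in OAZ2. The 60 coding bases around it are shown because both antizymes, and the paralogue OAZ3, share the site. Capitals mark the last codon before the shift and the stop codon, whose T is the skipped base.
OAZ1: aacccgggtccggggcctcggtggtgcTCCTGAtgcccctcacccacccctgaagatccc
OAZ2: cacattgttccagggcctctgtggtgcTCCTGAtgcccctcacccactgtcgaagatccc
OAZ3: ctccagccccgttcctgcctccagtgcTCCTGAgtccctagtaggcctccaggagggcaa
OAZ1 and OAZ2 are identical at 49 of the 60 bases. The stop follows 68 codons of a coding region of 228 in OAZ1, and 32 of 189 in OAZ2, so a count of either mRNA does not tell how much full-length antizyme is made.

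AMD1 has a short reading frame in its leader, known as a polyamine-sensitive brake on its translation. It covers bases 27 to 47 of the longest coding transcript, with 6 codons before its stop, and is shown with its start and stop codons in capitals.
AMD1: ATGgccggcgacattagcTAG
Leaders differ among the 8 genes. Reading frames were counted by their opening ATG, so ATGs that share a stop codon count separately. In the longest coding transcript of each gene, frames that end within the leader numbered 6 in AZIN1, whose leader has 1164 bases. There were 2 in ODC1 (511 bases), 2 in OAZ2 (233), 1 in AMD1 (336), 1 in SAT1 (179) and 0 in SMS (252), SRM (81) and OAZ1 (79). A further frame that opens in the leader and runs into the coding region was found 1 time each in SMS and SAT1. The leaders of SRM and OAZ1, the shortest of the 8, held neither kind.

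The E-box CACGTG, which reads the same on both strands, is the element that MYC and its partner MAX bind, and ODC1 is a textbook MYC target. RefSeq windows on build GRCh38.p14, from 250 bases before to 50 after a gene's start, matched 7 of the 8 genes in 10 windows. The motif was in 2 of these 10 windows, from 2 genes, SRM and ODC1. The GC content of these windows was 82% (SRM) and 80.7% (ODC1), the highest of the 10. The 10 are not all separate, as the AMD1 windows that start at 110874534 and 110874535 nearly coincide. Of 35116 windows of this length in the table, not matched for GC content, 7.26% hold the motif. ODC1 has it 2 times in the window of its downstream start, both inside an intron of the longest coding transcript, and SRM 1 time, 199 bases before its start. Each is shown 5′ to 3′ on the gene's strand, which is minus for both, with the motif in capitals.
SRM, chr1:11060202-11060227: ggccgggcccCACGTGgcccctggag
ODC1, chr2:10448026-10448051: gggccccgggCACGTGtgcggcgcgc
ODC1, chr2:10447992-10448017: cctgcggagaCACGTGgtcgccgagc
A match describes the letters of the window and is not a measured site, and no binding was measured here.

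All 8 genes were detected, which here means at least 1 CPM in each library, where 65.9% of 19890 protein-coding genes were. The libraries are bulk, so fewer cells with a transcript and less of it per cell cannot be told apart. Their median was 56.3 TPM, with 61.5 in replicate 1 and 47.2 in replicate 2, beside 2.88 TPM for all protein-coding genes. Together they held 33131 counts in replicate 1 and 34378 in replicate 2, or 0.185% ± 0.000802 of the libraries. OAZ1 alone held most of these.

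ODC1 (chromosome 2 from 10439968 to 10448327, exons of 2791 bases) had 4594 counts in replicate 1 and 4976 in replicate 2. These are 255 CPM (exact binomial 95% interval 248 to 263) and 268 CPM (260 to 275), or 189 and 190 TPM. The intervals cover counting error only and hold no spread between libraries. PCR copies of a molecule could not be told from separate ones, so the intervals may be too narrow even for counting error. ODC1 was the highest of the 4 synthesis enzymes in both libraries, and 97.5% of protein-coding genes had a lower mean TPM.

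AMD1 (chromosome 6 from 110874770 to 110898879) had 2025 and 1262 counts, which are 112 and 67.9 CPM, or 22.8 and 13.2 TPM. It was the lowest of the synthesis enzymes per exon length in both libraries, though second to ODC1 among them by mean CPM. Its deposited exons merge to 10193 bases, while the longest coding transcript has 3438, and with that length it stood at 46.0 and 26.8 TPM. It remained the lowest of the 4 enzymes in each library.

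SRM (chromosome 1 from 11054584 to 11060020) had 1418 and 946 counts, or 85.8 and 53.2 TPM. SMS (chromosome X from 21940709 to 21994837) had 1384 and 1484 counts, or 78.3 and 78.0 TPM. The values of the aminopropyl transferases overlapped, with SRM above SMS in replicate 1 and below it in replicate 2. The ratio of SRM to SMS in TPM was 1.10 and 0.682.

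SAT1 (chromosome X from 23783173 to 23786210) had 968 and 963 counts, which are 53.7 and 51.8 CPM, or 44.7 and 41.3 TPM. The acetyltransferase was below ODC1, SRM and SMS in TPM in both libraries. Its longest coding transcript has 1065 bases against 2482 in the merged exons, and by that length it stood at 71.0 and 66.1 TPM, above SMS in both libraries. The ratio of ODC1 to SAT1 in TPM was 4.22 and 4.60, and 1.91 and 2.07 with the longest coding transcript as length.

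OAZ1 (chromosome 19 from 2269509 to 2273490) had 20444 and 22220 counts, which are 1135 and 1196 CPM, or 682 and 688 TPM. It was the highest of the 8 in both libraries, and 99.2% of protein-coding genes had a lower mean TPM. OAZ2 (chromosome 15 from 64687573 to 64703281) had 1398 and 1668 counts, or 20.9 and 23.1 TPM. The merged exons of OAZ1 have 3436 bases and those of OAZ2 7671, against 1148 and 1934 in their longest coding transcripts. By the latter OAZ1 stood at 1390 and 1414 TPM and OAZ2 at 56.4 and 63.0. The antizymes were thus far apart, with OAZ1 at 31.2 ± 2.06 times OAZ2 in TPM and at 23.5 ± 1.55 times with the longest coding transcript as length.

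AZIN1 (chromosome 8 from 102826111 to 102893864) had 900 and 859 counts, which are 49.97 and 46.2 CPM, or 16.8 and 14.9 TPM. It had the lowest mean of the 8 in CPM and in TPM. ODC1 was 11.97 ± 1.07 times AZIN1 in TPM. The summed antizyme RNAs were 3.74 ± 0.0167 times ODC1 and 44.7 ± 4.20 times AZIN1 in TPM. With the longest coding transcript as length these ratios became 10.7 ± 0.0549 and 104 ± 9.84, so their size depends on the length used and antizyme RNA was in excess with either.

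**Figure D1:**
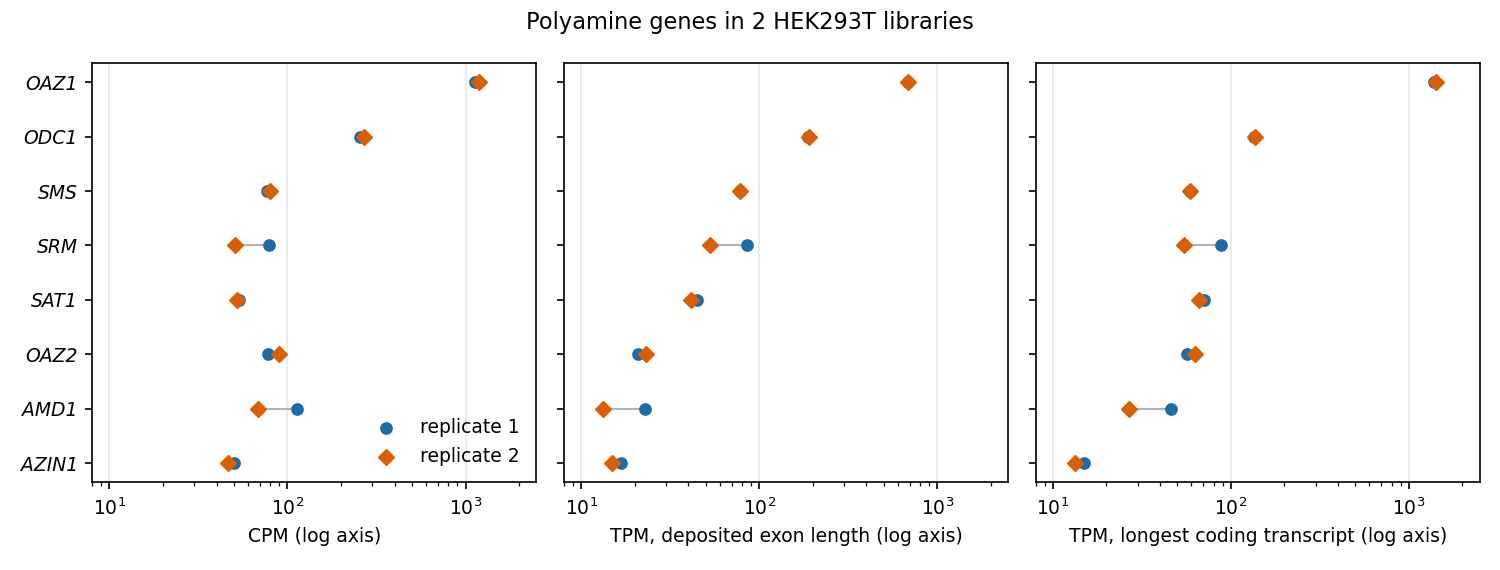
Level of each of the 8 genes in replicate 1 (circles) and replicate 2 (diamonds) on log axes, as CPM, TPM with the deposited exon length, and TPM with the longest coding transcript as length. OAZ1 and ODC1 lead on each scale, AZIN1 has the lowest mean on each, and the libraries part most for AMD1 and SRM.

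By mean TPM the order was OAZ1 (685 ± 4.43), ODC1 (189 ± 0.764), SMS (78.1 ± 0.243), SRM (69.5 ± 23.1), SAT1 (43.0 ± 2.41), OAZ2 (22.02 ± 1.59), AMD1 (18.0 ± 6.79) and AZIN1 (15.9 ± 1.35). Neighbours were taken as apart where their means differed by more than the sum of their SDs. SMS and SRM, OAZ2 and AMD1, and AMD1 and AZIN1 were not apart by this rule. SRM and SAT1 were only just so, with a difference of 26.5 TPM against summed SDs of 25.5. With the longest coding transcript as length the first, second, seventh and eighth places were the same. SRM (71.0 ± 23.2 TPM), SAT1 (68.5 ± 3.48), OAZ2 (59.7 ± 4.64) and SMS (58.9 ± 0.131) then took the places between them. The order in the middle thus rests on the length. By the same rule SRM and SAT1, and OAZ2 and SMS, were then not apart. AMD1 and AZIN1 were then apart, with a difference of 22.3 TPM against summed SDs of 14.7.

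Near the level of OAZ1 in both libraries, by distance on log2(TPM + 0.1), the closest protein-coding genes were RPS23 (687 and 692 TPM), a ribosomal protein gene, TRIR (660 and 695) and RACK1 (729 and 691), which encodes a ribosome-bound scaffold. Closest to SRM, the fourth of the 8 in mean TPM, were PAK1IP1 (86.5 and 53.2 TPM), CEBPB (81.5 and 52.4) and IRS4 (81.4 and 55.7). That these were also lower in replicate 2 follows from choosing them by their levels in both libraries. Over 2 libraries this likeness says only that levels were close.

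OAZ1 shares exonic bases with 2 other genes at its first exon. JSRP1, a gene of the sarcoplasmic reticulum of skeletal muscle, lies on the opposite strand and shares 236 bases with OAZ1, or 6.87% of the merged exons of OAZ1. JSRP1 had 9813 counts in replicate 1 and 12797 in replicate 2, equal in number to 48.0% and 57.6% of those of OAZ1. ENSG00000273734, a gene model on the same strand as OAZ1, shares 220 bases with OAZ1 and had 10008 and 13109 counts. It also shares 220 bases with JSRP1. SAT1 holds a similar case, since ENSG00000288706 lies wholly within it, 105 to 194 bases after its start. That model covers 3.63% of the exonic bases of SAT1 and had 296 and 390 counts, equal to 30.6% and 40.5% of those of SAT1. The files give no counts per exon. All 90 bases of ENSG00000288706 are exonic bases of SAT1 on the same strand, so any read counted for it also overlapped SAT1. Which of these overlapping genes the reads came from, and whether some were counted for more than 1, was not tested. OAZ2 shares 7.22% of its bases with a model that had 3 counts in each library, and ODC1, AMD1, SRM, SMS and AZIN1 share none.

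**Figure D2:**
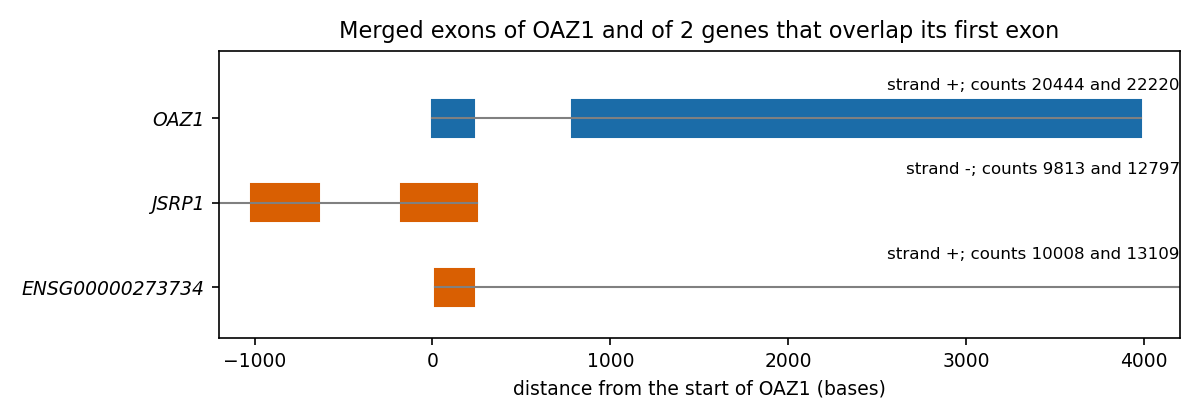
Merged exons (boxes) of OAZ1, of JSRP1 on the opposite strand and of ENSG00000273734, by distance in bases from the start of OAZ1, with the counts of replicates 1 and 2 at the right. Both neighbours overlap the first exon of OAZ1, and both have counts of the order of those of OAZ1.

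Between the libraries, AMD1 and SRM were lower in replicate 2, and the other 6 genes were close. Ratios are log2 of replicate 2 over replicate 1 after scaling, and with 1 library on each side they have no test. AMD1 differed by -0.70 log2 (interval from counting error -0.80 to -0.59) and SRM by -0.60 (-0.72 to -0.48). The other ratios were 0.24 for OAZ2, 0.11 for OAZ1, 0.10 for ODC1, 0.09 for SMS, -0.02 for SAT1 and -0.08 for AZIN1. Of 14704 genes that averaged at least 50 counts, 5.22% lay at least as far from 0 as AMD1 and 7.58% as SRM, beside 70.6% for ODC1.

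At 0.5 log2, 2 of the 8 genes were lower (1 with GC centring) and 0 higher in replicate 2, where 8.84% of all these genes were lower and 2.86% higher. At 1 log2, 0 of 8 were lower and 0 higher, beside 1.92% and 0.143%. The median ratio was 0.03 for the 8 genes and 0.00 for all. The common biological coefficient of variation between the libraries was 15.6%, from edgeR over 18315 genes. The GC content of the longest coding transcript was lowest of the 8 in AMD1 (38.0%) and highest in SRM (63.7%). With ratios centred on GC content AMD1 stood at -0.39 and SRM at -0.69, so this moved AMD1 nearer to 0 and SRM further away.

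**Figure D3:**
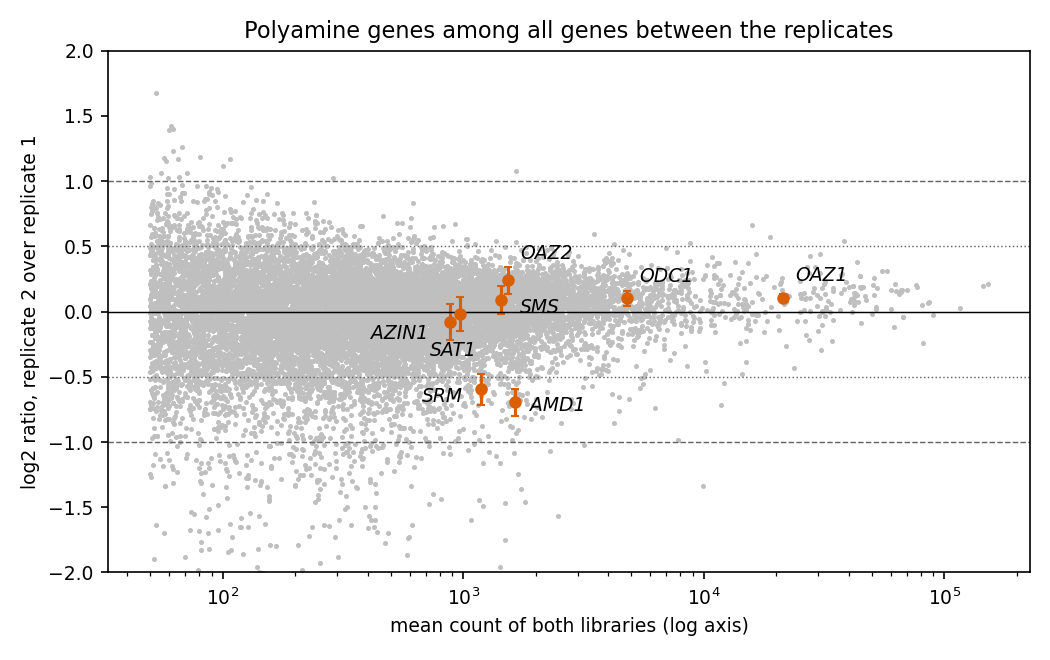
Log2 ratio of replicate 2 over replicate 1 against the mean count (log axis) for genes averaging at least 50 counts (grey), with the 8 genes in orange and bars for the 95% interval from counting error; 23 genes lie beyond the plotted range. AMD1 (-0.70) and SRM (-0.60) fall below the dotted line at -0.5, and the other 6 lie near 0.

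The files list 9 pseudogenes named after OAZ1, AMD1, SMS or SRM, of which 3 had counts, with at most 3 in a library. How reads that align to both a gene and a copy were assigned was not tested.

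The paralogues and catabolic genes around the 8 were all detected, 6 of 6, with a median of 7.52 TPM. SAT2, related to SAT1 by sequence, had 1080 and 1127 counts, or 75.4 and 73.0 TPM, above SAT1 in both libraries, and it was also above SAT1 in mean TPM with the longest coding transcript as length (88.1 against 68.5). The spermine oxidase SMOX had 9.22 and 8.20 TPM and the acetylpolyamine oxidase PAOX 6.11 and 6.53, though other genes overlap 61.0% of the exonic bases of PAOX. AZIN2, the other antizyme inhibitor, had 1.95 and 2.28 TPM, below AZIN1. SATL1 had 2.31 and 1.39 TPM.

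OAZ3, the antizyme known from testis, had 1077 and 1360 counts, or 26.7 and 31.2 TPM, above OAZ2 in both libraries. Other genes overlap 27.6% of the exonic bases of OAZ3, so its value is uncertain as to source. Among them on the opposite strand is MRPL9, a mitochondrial ribosomal protein gene with 2302 and 2294 counts (log2 ratio -0.02). Also opposite are ENSG00000249602 with 835 and 1072 (0.35) and TDRKH with 224 and 321 (0.50). OAZ3 had a ratio of 0.32. MRPL9, ENSG00000249602 and TDRKH share 265, 118 and 86 bases with OAZ3. ENSG00000232937 and ENSG00000268288 share more, 424 and 403 bases, and had 5 counts or fewer in each library. Which gene the reads came from was not tested. With the longest coding transcript as length OAZ3 stood at 24.2 TPM and OAZ2 at 59.7, which turns their order.

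Genes that feed the pathway are read against the 65.9% of protein-coding genes detected. Of 6 ornithine and arginine genes 5 were detected, led by the ornithine aminotransferase OAT (98.5 and 87.0 TPM), while the liver arginase ARG1 had 3 and 2 counts. Of 8 genes for S-adenosylmethionine supply and methylthioadenosine salvage 7 were detected. MAT2A, which makes S-adenosylmethionine, the substrate of AMD1, led them at 132 and 135 TPM, and the liver form MAT1A had 2 and 9 counts. Of 10 genes for transport 5 were detected, and with so few genes this share is not read as different from 65.9%. Levels of the 10 ran from SLC3A2 (109 and 118 TPM) to SLC22A2, which had 0 counts in both libraries. SLC22A2 was thus at most at 0.167 and 0.162 CPM (the 3 counts that a count of 0 allows).

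Spermidine is the source of hypusine, a modified lysine of the translation factor EIF5A. All 5 genes of that list were detected, from EIF5A (383 and 461 TPM) to its paralogue EIF5A2 (3.54 and 1.96). EIF5A shares 8.98% of its bases with another gene, on the opposite strand. Of 11 MYC network genes 10 were detected, with MXD3 highest (139 and 126 TPM, 40.2% of its bases shared with other genes) and MYCN lowest (8 and 7 counts). MYC itself, named for its link to ODC1 and outside the naming rule, had 23.9 and 18.6 TPM, and its partner MAX 18.6 and 17.6. Over all 46 of these genes 38 were detected, with a median of 10.01 TPM beside 56.3 for the 8. Of the 37 that averaged at least 50 counts, 0 passed 1 log2 between the libraries in either direction, which is near the 1.92% lower and 0.143% higher of all genes.

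**Figure D4:**
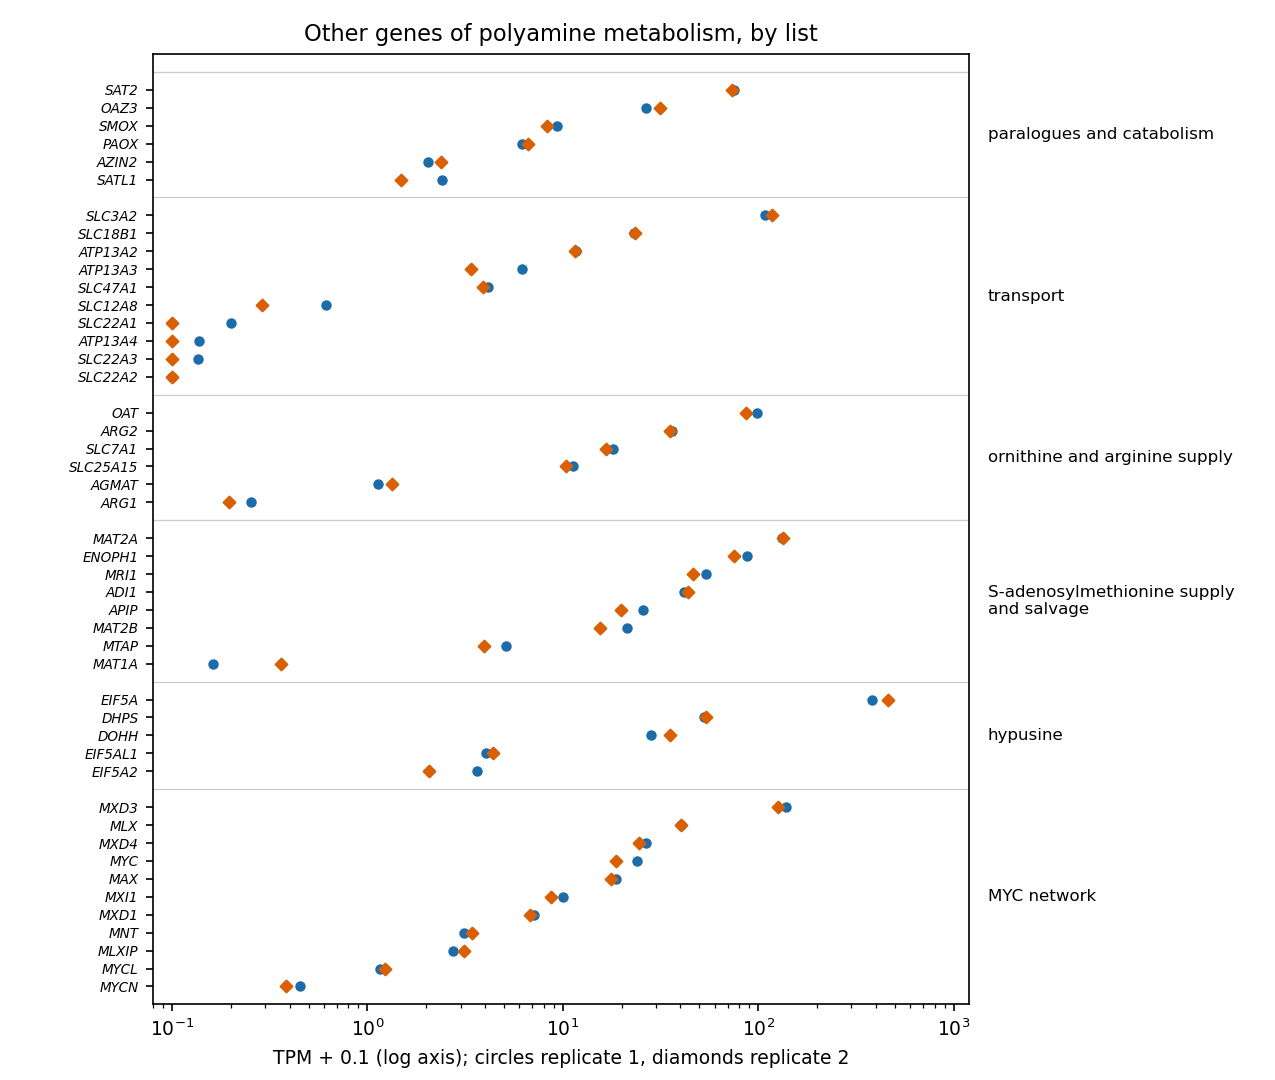
TPM + 0.1 on a log axis in replicate 1 (circles) and replicate 2 (diamonds) for the other genes of polyamine metabolism, grouped by list. EIF5A is highest at 383 and 461 TPM, and the genes at the left edge of the transport list have 3 counts or fewer in each library.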

How the data were processed

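RNA of 2 libraries of untreated HEK293T cells was DNase-treated and reverse transcribed from an oligo(dT) primer, which favours RNAs with a poly(A) tail, per the labels' protocols. The authors deposited counts for each Ensembl gene, whole numbers with no normalisation, per the file headers. Counting with featureCounts 2.0.3 on build GRCh38, after Trim Galore 0.6.7 and bcl2fastq 2.17, is per the submitters' processing notes. For the aligner, the annotation release and the handling of strand and overlaps, nothing is given in the sources used here. The counts totalled 18011638 and 18575058.

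Symbols matched 60463 of 60664 IDs. Gene types, transcripts and GC content came from GENCODE 29. CPM used the library totals and TPM the deposited merged exon lengths. Overlap between exons of any strand came from bedtools 2.31.1 on the deposited coordinates. Ratios used edgeR 4.0.16 in R 4.3.3, its TMM scaling (factors 1.01 and 0.989) and 2 as prior count, and the ratio step was tested on simulated data. DESeq2 1.42.0 size factors were an alternative, and at 1 and 1 they left the counts unscaled. GC centring subtracted the median ratio of 20 GC classes. With 1 group there was no contrast to test. Exact binomial intervals are at 95%.

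The 8 genes, the other lists and the rules were chosen with earlier results of these data known. Named besides the 8 were all 6 paralogues and catabolic genes, the highest and lowest by mean TPM of each other list, and the 3 nearest protein-coding genes to the first and the fourth of the 8 by mean TPM. The fourth stood for the middle of the 8. The genes overlapping OAZ1, SAT1, OAZ2 and OAZ3, with MYC, MAX and the markers, were named after their values were seen.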

Additional observations from a re-analysis of the deposited data

How the results depend on the processing

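The summed level of the 8 genes was 1121 TPM, 1102 to 1140 with either replicate left out, and 1847 with the longest coding transcript as length. Their median lay 4.20 log2 above that of all protein-coding genes. It lay 3.22 above with CPM, 4.46 with the longest coding transcript, 3.84 with a pseudocount of 1, 2.67 among detected genes alone and 4.38 after dropping genes whose exons overlap others over at least 25% of their length. With 1 replicate left out it was 4.09 to 4.22. All 8 were detected at 0.5 and at 5 CPM, and in each library alone. Of the 46 other pathway genes, 35 to 39 were. The count of the 8 past 1 log2 between the libraries was 0 under each scaling, filter, prior count and GC setting tried. At 0.5 log2 it was 2, and in alternatives chosen after seeing the data it was 2 under the other scalings and prior count and 1 after GC centring, where AMD1 fell short. AMD1 ranged from -0.73 to -0.39 and SRM from -0.69 to -0.58 over 4 alternatives to the scaling. SAT1 and AZIN1, both close to 0, turned to 0.03 and 0.04 after GC centring. No paired analysis was possible because the labels give a single group.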

Other observations

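The 3 gene models that overlap the first exon of OAZ1 or SAT1 had higher ratios between the libraries than the genes they overlap. JSRP1 stood at 0.37, ENSG00000273734 at 0.38 and ENSG00000288706 at 0.38 log2 in replicate 2 over replicate 1, while OAZ1 stood at 0.11 and SAT1 at -0.02. The differences were 0.26 and 0.27 for the models at OAZ1 and 0.40 for that at SAT1. JSRP1 and ENSG00000273734 share 220 bases with each other, so their ratios are not separate observations. Whether the same reads were counted for both, or for OAZ1 as well, was not tested. JSRP1 is listed at 577 and 699 TPM in these cells, close to OAZ1 at 682 and 688. These models were picked after their values were seen.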
